A study of Mus musculus with 4 samples.

Results

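The replication-dependent histone genes are the multicopy genes that encode the core histones H2A, H2B, H3 and H4 and the linker histone H1. They were chosen by name, as genes whose RefSeq symbol belongs to a Hist1 to Hist4 cluster, to the H2ac, H2bc, H3c or H4c series or to H1f1 to H1f5. This gave 67 genes with 71 IDs among the 32757 transcript IDs of the files, 62 by their current symbol and 5 by an older symbol alone (*H2aw*, *H2bu2*, *H1f6*, *H4f16* and *H4bc24*). Of the 67, 6 encode H1, 18 H2A, 18 H2B, 12 H3 and 13 H4, and 54 lie on chromosome 13 (the Hist1 cluster), 10 on chromosome 3, 2 on chromosome 11 and 1 on chromosome 6. Each gene was represented by the ID with the most reads.

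RNA was sequenced from immortalized mouse dermal fibroblasts (imMDFs) that carry (*Tmpo* WT, labelled Lap2alpha +/+) or lack (*Tmpo* KO, Lap2alpha -/-) the nucleoplasmic lamin A/C partner LAP2alpha, which *Tmpo* encodes. There was 1 library per genotype at passage 34 and 1 at passage 42, all untreated and cultured in the same medium. The sources name 1 line per genotype, so the genotype and any other difference between the lines cannot be told apart, and nothing says that the 2 libraries of a genotype are separate cultures beyond their passages. The libraries were sequenced 2 to a lane and the sources used here do not say which shared one, so a lane cannot be told apart from genotype or passage. Any p-value given here thus rests on the spread of these particular libraries, which may be technical. The tests estimate that spread in part over all tested transcripts and not from the gene alone. In the main comparison of genotypes the 2 libraries of a genotype differ in passage, so their spread and SD also hold any difference between passages. An SD at a passage is that between 1 WT and 1 KO library. The libraries are given below in the order WT at passage 34, KO at passage 34, WT at passage 42 and KO at passage 42. Reads given to transcripts numbered 12168433, 15786136, 15677378 and 19603812. The transcript of LAP2alpha had 903, 6, 1324 and 6 reads, as its genotype labels have it. The 14 fibroblast markers summed to between 13272 and 18381 CPM (transcript reads scaled to a common library size with TMM factors), against at most 14 CPM for the keratinocyte, 6.13 for the endothelial, 2.95 for the immune cell, 8.94 for the melanocyte and 5.55 for the muscle and pericyte markers.

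Core histones form the nucleosome, around which DNA is wrapped, and H1 binds the DNA that enters and leaves it. Their mRNAs rise when a cell replicates its DNA and are degraded when replication ends. They carry no poly(A) tail: their 3' end is cut behind a conserved stem-loop, which SLBP binds. The RNA was depleted of rRNA and not selected for poly(A), so that such mRNAs could be sequenced. In RNA from a whole culture, fewer cells in S phase and less histone mRNA per cell cannot be told apart.

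The stem-loop was found within 200 bases of the stop codon in 63 of the 67 genes in mm9, the build of the authors' mapping. It is shown as a mark of the class, and its stem separates the H4 genes from the other families. Its stem, in capitals, had the same letters in all H1, H2A, H2B and H3 genes where it was found, and other letters in all H4 genes. The 5 bases on each side are shown for 1 gene of each form. The first form stood in 39 genes, the second in 9, the third in 8, and the fourth and the fifth in 2 each. *H2ac20*, *H3c8* and *H4c1* each had a stem-loop of another form, not shown.
H2ac12: ccaaaGGCTCTtttcAGAGCCacaca
H2bc3: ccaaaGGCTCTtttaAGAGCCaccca
H4c4: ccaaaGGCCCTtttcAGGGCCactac
H4c14: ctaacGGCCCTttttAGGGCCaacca
H4c2: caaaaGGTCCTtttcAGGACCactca
No stem-loop of these forms was found in that window of *H2ac22*, *H2bc18*, *H2bc21* and *H3c15*, which says only that these letters are not there.

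Many H2A and H2B genes share a promoter, since they are transcribed away from each other. There were 12 such pairs, each of 1 H2A and 1 H2B gene with starts at most 500 bases apart. The bases between the starts are shown for 3 pairs with a gene that was lower at passage 42 (below), and the 250 bases before *H1f1*, the gene with the lowest log2 fold change in KO, follow. The pairs are read from mm9 on the strand of the H2A gene, and *H1f1* from the RefSeq promoters of GRCm38.p6. Capitals mark CCAAT, the TATA box core TATAAA and the octamer ATTTGCAT on either strand, none of which contains another.
H2ac12 and H2bc12, chr13:22127513-22127689, - strand: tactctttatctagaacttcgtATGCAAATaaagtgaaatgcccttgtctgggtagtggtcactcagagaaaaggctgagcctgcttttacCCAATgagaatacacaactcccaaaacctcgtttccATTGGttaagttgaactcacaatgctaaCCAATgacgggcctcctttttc
H2ac6 and H2bc4, chr13:23775818-23776067, - strand: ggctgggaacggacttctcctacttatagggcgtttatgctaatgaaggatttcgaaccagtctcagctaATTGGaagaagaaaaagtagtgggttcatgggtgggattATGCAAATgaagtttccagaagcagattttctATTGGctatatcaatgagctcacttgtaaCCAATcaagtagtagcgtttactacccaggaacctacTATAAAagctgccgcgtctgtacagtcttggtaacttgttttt
H2ac15 and H2bc15, chr13:21845777-21845991, - strand: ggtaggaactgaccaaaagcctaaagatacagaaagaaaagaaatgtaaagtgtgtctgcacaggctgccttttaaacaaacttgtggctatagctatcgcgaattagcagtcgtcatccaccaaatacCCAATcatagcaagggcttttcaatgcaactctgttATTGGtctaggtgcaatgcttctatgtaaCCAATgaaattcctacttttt
H1f1, chr13:23763418-23763667, + strand: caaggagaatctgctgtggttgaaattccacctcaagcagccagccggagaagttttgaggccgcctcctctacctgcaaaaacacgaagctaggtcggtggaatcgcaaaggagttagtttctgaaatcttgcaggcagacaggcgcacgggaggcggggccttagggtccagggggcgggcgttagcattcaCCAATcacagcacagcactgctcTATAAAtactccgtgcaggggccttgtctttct
In the 250 bases before the start, CCAAT stood in 82.3% of the 62 histone promoters that were matched and in 34.5% of all 27025 RefSeq promoters. It stood in all H1, H2A and H2B promoters, in 80% of the H3 and in 25% of the H4 promoters. TATAAA stood in 46.8% of the histone and in 13% of all promoters. The octamer ATTTGCAT, known from H2B promoters, stood in 38.9% of the H2A and 37.5% of the H2B promoters, in 0 of those of H1, H3 and H4, and in 1.61% of all. In a shared promoter 1 match of any of these motifs can count for both genes, as the octamer does for *H2ac12* and *H2bc12*. The H2A and H2B shares are thus not independent. Matches were counted at any place in the 250 bases and on either strand. A TATAAA match need not be a TATA box, and in *H4c6* it stands at the end farthest from the start. Such matches are not evidence of binding.

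Histone reads made up 1.48%, 1.25%, 1.24% and 0.999% of the reads given to transcripts. The share was lower in KO than in WT at both passages, and lower at passage 42 than at passage 34 in both genotypes. Of the 67 genes, 53 had enough reads to be tested (at least 1 CPM in both libraries of a genotype), 8 had no read in any library and 6 had fewer than required. The study kept only reads with a mapping quality above 20, which removes reads that fit several places, and histone genes are near copies of each other. Of the 8 genes without a read, 7 have an annotated coding sequence, and in these at least 92.5% of the 32-base windows occur elsewhere in mm9. In the 53 tested genes the median was 79.5%, from 0.164% in *H1f1* to 100% in 4 genes. Reads that fit several IDs or overlapping genes were also set aside as ambiguous. *H2bc6*, with 3 IDs, had at most 1 read per library for the ID used. *H2ac18*, with 0 reads, overlaps *H3c14* (Hist2h3c1) on the same strand. A level here is thus that of the reads a gene could claim for itself, and 0 reads do not show that a gene was silent.

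Compared per kilobase of RefSeq gene length, the highest mean levels over the 4 libraries were those of the H4 gene *H4c4* (3126 CPM per kb), the H2B genes *H2bc18* (1749) and *H2bc15* (1617), the linker histone gene *H1f4* (1408), *H4c14* (1117) and *H2bc3* (1116). The H2A gene with the highest level was *H2ac15* (565), and the H3 gene was *H3c13* (530). The genes of testis histones were near the other end, with *H2bc1* at 2.29, *H2ac1* at 1.8 and *H1f6* at 0.601. They were not alone there, with *H2bu2* at 1.13, *H3c14* at 0.176 and 8 genes without a read.

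**Figure D1:**
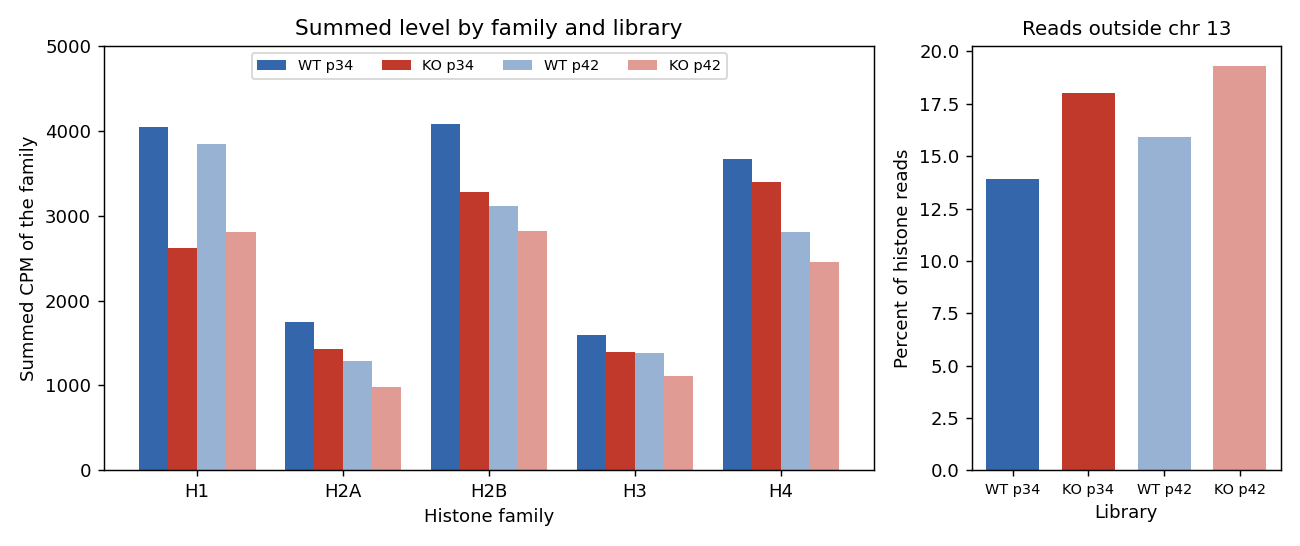
Summed TMM-normalized CPM of the 5 histone families in each library (left, 1 bar per library, no error since each bar is 1 library) and the percentage of histone reads from genes outside chromosome 13 (right). The H1 sum was lower in both KO libraries, the H2A sum was lowest in the KO library of passage 42, and the share outside chromosome 13 was higher in KO (18% and 19.3%) than in WT (13.9% and 15.9%).

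To ask whether loss of LAP2alpha went with a change of histone mRNAs, the KO libraries were compared with the WT libraries. Most histone genes had slightly lower values in KO, and the H1 family had the lowest median. No histone gene passed the main test. A fit with the passage as a block called 2 of 53, *H1f1* and *H1f4*, where it called 7.88% of all tested transcripts. The median log2 fold change of the 53 tested genes was −0.29, against 0.02 for all 13855 tested transcripts. It was −0.51 for the 5 H1 genes, −0.36 for the 14 H2A genes, −0.27 for the 12 H2B genes, −0.23 for the 10 H3 genes and −0.24 for the 12 H4 genes, and the difference between families was not tested. In edgeR's quasi-likelihood test, at an adjusted p under 0.05, 0 of 53 histone genes were higher and 0 lower, where 1.51% of all tested transcripts were called higher and 1.24% lower. At an unadjusted p under 0.05, 6 were lower (*H1f1*, *H1f3*, *H1f4*, *H2ac10*, *H3c1* and *H3c3*), which is 11.3% against 5.81% of all transcripts, and 0 were higher, against 6.95%. DESeq2 called 1 histone gene, *H1f1*, against 3.92% of all transcripts. With the passage as a block, edgeR's test called 2 histone genes, *H1f1* and *H1f4*, among 1092 transcripts against 381 without the block. These 1092 are 7.88% of all tested transcripts, so histone genes were not called more often than transcripts at large. A negative fold change was seen in 47 of 53 histone genes (48.4% of all transcripts), and both KO libraries lay below both WT libraries in 20 of 53, or 37.7% (19.9% of all). The 20 include *H2ac1* and *H4c18*, which had 1 CPM in both WT libraries but not in both KO libraries and so entered the test through WT alone. Among the 51 histone genes with at least 1 CPM in all 4 libraries, 18 lay below (35.3%, against 19.9% of all such transcripts) and 45 had a negative fold change (against 49.1%), with a median of −0.28. Both lay above in 1 gene, *H2bc13* (21.9% of all). Without the WT library of passage 34 the median was −0.06, and without the KO library of passage 34 it was −0.47. Each of these fits sets unequal passages against each other, and the passages differ as described below.

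The linker histone genes, which had negative values in all 5 tested members, ran from −0.90 to −0.21, a range that overlaps those of the other families. *H1f1* (Hist1h1a, NM_030609), at chromosome 13, 23855537 to 23856283, plus strand in mm9, had 754, 358, 813 and 480 CPM. Both KO libraries lay well below both WT libraries, with 419 ± 86.5 CPM (SD, n = 2) in KO and 783 ± 41.4 CPM (SD, n = 2) in WT. Its log2 fold change was −0.90 ± 0.223 (SE; edgeR quasi-likelihood, adjusted p = 0.062). With the passage as a block the gene was called (edgeR quasi-likelihood, adjusted p = 5.09e-05). It passed in 6 of 12 alternatives, among them DESeq2 and RLE size factors, with adjusted p-values over all 12 from 5.09e-05 to 0.357. Only 0.164% of its coding windows occur elsewhere in mm9, the lowest share among the tested genes.

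*H1f4*, the H1 gene with the most reads, had 1371, 817, 1295 and 921 CPM, a log2 fold change of −0.62 ± 0.216 (SE; edgeR quasi-likelihood, adjusted p = 0.215). With the passage as a block it was −0.62 and the gene was called (edgeR quasi-likelihood, adjusted p = 0.0252). *H1f3* had 559, 344, 510 and 404 CPM, a log2 fold change of −0.51. *H1f2* had 781, 587, 684 and 550 CPM, a log2 fold change of −0.37. In all 3 genes the genotypes did not overlap. *H1f5* had 576, 516, 541 and 446 CPM, the smallest H1 difference at −0.21, and its groups did not overlap either. The 6 H1 genes together summed to 4042, 2623, 3843 and 2802 CPM, so their summed level was lower in KO at both passages and close to equal between the passages.

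Among the H2A genes, the log2 fold change in KO ran from −0.56 in *H2ac22* to 0.19 in *H2ac21* where all 4 libraries had at least 1 CPM. *H2ac1*, which entered through WT alone, had 13, 8, 16 and 16 reads and −0.65. The abundant *H2ac15* had 338, 329, 324 and 220 CPM and *H2ac13* 246, 182, 164 and 130 CPM, with log2 fold changes of −0.27 and −0.39. Among the H2B genes, *H2bc3* had 731, 531, 530 and 394 CPM (−0.45) and *H2bc8* 436, 333, 284 and 229 CPM (−0.36). In these 4 genes the KO library was lower within each passage, while the genotypes overlapped when passages were pooled. Among the H3 genes, *H3c7* had 382, 258, 302 and 242 CPM (−0.45) and *H3c6* 192, 145, 146 and 141 CPM (−0.24), without overlap, and *H3c8* had 180, 181, 153 and 108 CPM (−0.21). Among the H4 genes, *H4c4* had 1546, 1361, 1155 and 964 CPM (−0.22), *H4c8* 427, 322, 264 and 251 CPM (−0.27) and *H4c3* 380, 251, 238 and 202 CPM (−0.45). *H4c18*, which also entered through WT alone, had 16, 10, 23 and 23 reads and −0.62. None of these H2A, H2B, H3 and H4 genes passed edgeR's test.

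**Figure D2:**
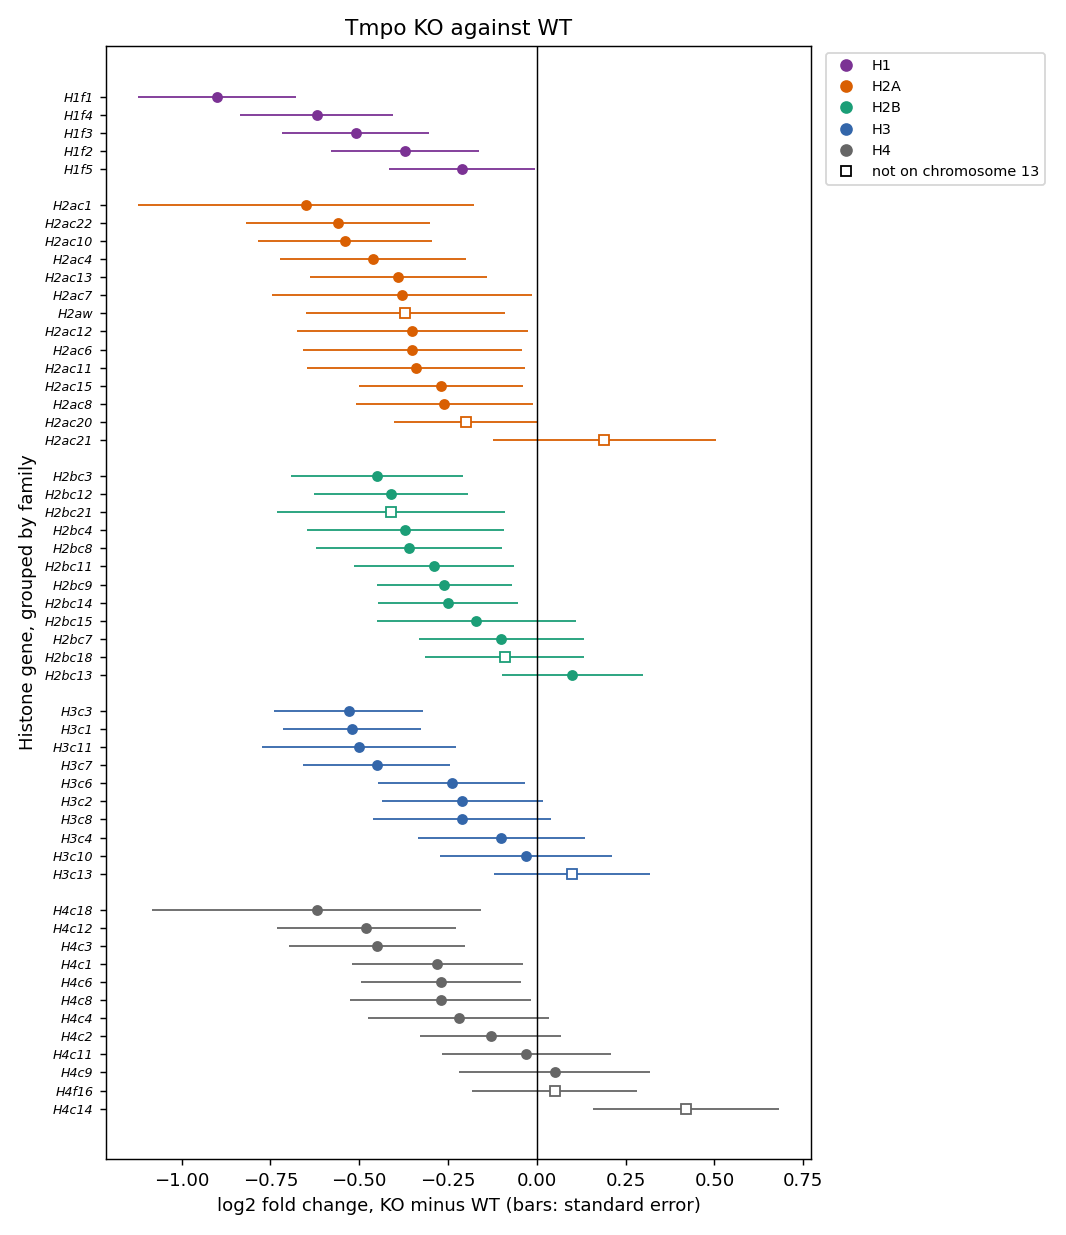
Log2 fold change of *Tmpo* KO against WT for the 53 tested histone genes, grouped by family, with standard errors from edgeR's quasi-likelihood test (n = 2 libraries per genotype); open squares are genes outside chromosome 13. All 5 H1 genes lie below 0, from −0.90 to −0.21, and *H4c14* lies highest at 0.42.

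Most genes of the cluster on chromosome 13 had negative values in KO, while the few genes elsewhere had no common direction. On chromosome 13, 43 of 45 tested genes had a negative log2 fold change in KO, with a median of −0.35. Of the 8 tested genes on other chromosomes, 4 had a negative one, with a range of −0.41 to 0.42 and a median of −0.02. The chromosome 13 genes summed to 13034, 9948, 10454 and 8205 CPM, and the others to 2097, 2183, 1975 and 1963 CPM. The summed level of chromosome 13 was thus lower in KO at both passages. The sum of the others lay between 1963 and 2183 CPM and adds genes that went opposite ways, since at passage 34 KO was higher than WT in *H4c14* (607 against 312 CPM) and lower in *H2bc18* (729 against 942 CPM). The share of histone reads from chromosome 13 was 86.1% and 84.1% in WT and 82% and 80.7% in KO. With 2 libraries against 2, an exact permutation test cannot give a two-sided p under 0.333, so the difference was not tested. Without *H4c14* the shares were 88% and 87.1% in WT and 83.8% to 86.3% in KO. All 5 tested H1 genes are on chromosome 13, and without the H1 genes the shares were 81.1% and 77% in WT and 77% and 73.3% in KO, so that the WT library of passage 42 and the KO library of passage 34 were level. Within families, the median on chromosome 13 was −0.38 for H2A, −0.27 for H2B, −0.24 for H3 and −0.27 for H4.

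The 2 genes that exceeded WT most in the KO library of passage 34, *H4c14* and *H3c13*, lie on chromosome 3. *H4c14* (Hist2h4, NM_033596), at chromosome 3, 96065627 to 96067234, minus strand in mm9, had 312, 607, 422 and 375 CPM. KO was higher at passage 34 and lower at passage 42, and the fitted log2 fold change of 0.42 ± 0.263 (SE; edgeR quasi-likelihood, adjusted p = 0.597) averages over both. Its neighbor *H3c13* had 243, 321, 271 and 230 CPM, again higher in KO at passage 34 alone. The H2B gene *H2bc18* had 942, 729, 839 and 939 CPM, with the reverse order. *H2ac20* had 241, 201, 201 and 182 CPM (−0.20), *H2ac21* 12.2, 14.2, 9.39 and 10.4 CPM (0.19) and *H2bc21* 7.92, 6.59, 9.58 and 6.6 CPM (−0.41). *H2aw* on chromosome 11 had 138, 104, 83.3 and 67 CPM (−0.37), and *H4f16* on chromosome 6 had 200, 199, 141 and 153 CPM (0.05). Among these 8 genes, only *H2bc21* had genotypes that did not overlap.

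Within a passage, with 1 library per genotype and no test, the median difference of KO minus WT in log2 CPM (prior count of 2) was −0.36 at passage 34 and −0.29 at passage 42. For all tested transcripts it was 0.01 at each passage. KO lay below WT at both passages in 42 of 53 histone genes, or 79.2%, against 29% of all tested transcripts. Without *H2ac1* and *H4c18* it was 40 of 51, or 78.4%. The H1 median was −0.70 at passage 34 and −0.34 at passage 42.

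**Figure D3:**
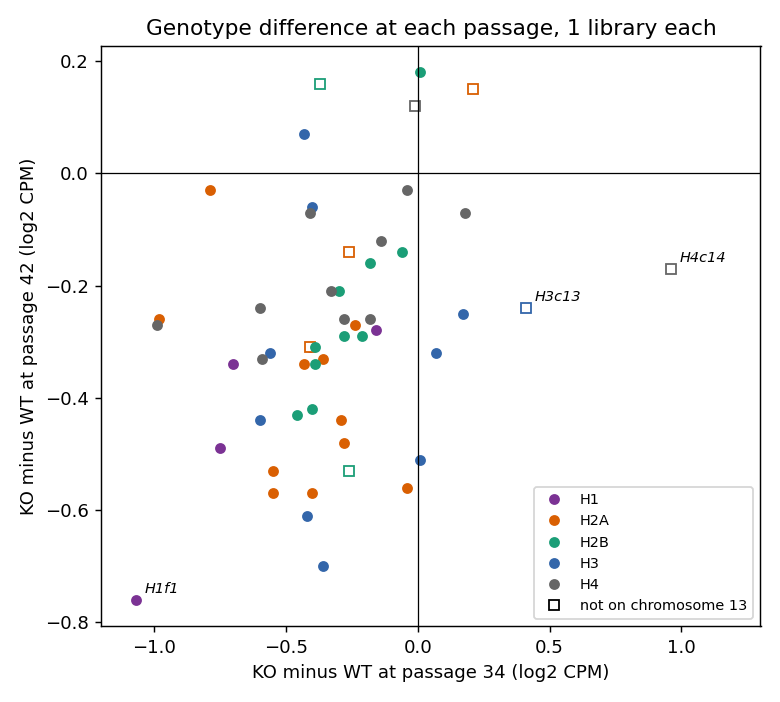
Log2 CPM (prior count of 2) of KO minus that of WT at passage 34 (horizontal) and at passage 42 (vertical), 1 point per tested histone gene, colored by family; each axis compares 1 library with 1 library, so no error is drawn. Most points lie below 0 on both axes, and *H4c14* lies at 0.96 and −0.17.

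The passages were compared with the genotype as a block. Most histone genes had lower values at passage 42, and 6 passed the test, 5 of them H2A genes. The median log2 fold change of the 53 genes was −0.32, against 0.01 for all tested transcripts. It was −0.47 for H2A, −0.45 for H4, −0.26 for H2B, −0.23 for H3 and 0.05 for H1. At an adjusted p under 0.05 in edgeR's quasi-likelihood test, 6 of 53 histone genes (11.3%) were lower at passage 42, against 0.541% of all transcripts, and 0 were higher, against 1.77%. They were the H2A genes *H2ac4*, *H2ac6*, *H2ac11*, *H2ac12* and *H2aw* and the H2B gene *H2bc15*. At an unadjusted p under 0.05, 22 were lower, or 41.5%, against 3.90% of all transcripts, and 0 higher, against 7.69%. A negative fold change was seen in 40 of 53 (49.0% of all). Both libraries of passage 42 lay below both of passage 34 in 28 of 53, or 52.8% (15.8% of all), and above in 0 (18.0% of all). DESeq2 called 2 of the 6, *H2ac12* and *H2ac6*, which are also called with 1 CPM required in all 4 libraries and with counts summed per gene. Without the genotype block 0 of the 13855 transcripts passed edgeR's test. In that fit 10 of 53 histone genes had an unadjusted p under 0.05, against 669 of all 13855 transcripts.

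*H2ac12* (Hist1h2ah, NM_175659), at chromosome 13, 22126982 to 22127512, minus strand in mm9, had 153, 127, 89.7 and 64.1 CPM. Its level fell from 140 ± 18.9 CPM (SD, n = 2) at passage 34 to 76.9 ± 18.1 CPM (SD, n = 2) at passage 42, a log2 fold change of −0.88 ± 0.188 (SE; edgeR quasi-likelihood, adjusted p = 0.000728). *H2ac6* had 198, 155, 112 and 88.9 CPM, and fell with a log2 fold change of −0.81 ± 0.183 (SE; edgeR quasi-likelihood, adjusted p = 0.00157). In both genes each genotype was lower at passage 42. The SEs and p-values of this fit do not measure a gene's own spread between the genotypes. The SE of *H4c14*, which differed by 0.43 in WT and −0.69 in KO, was 0.188. It was the same in *H2ac12*, which differed by −0.77 in WT and −0.98 in KO. The annotated span of *H2ac6* also holds a 5S rRNA gene of the same strand, so its count is less certain.

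*H2aw*, on chromosome 11, fell from 121 ± 24 CPM to 75.1 ± 11.5 CPM (SD, n = 2 each), a log2 fold change of −0.68 ± 0.192 (SE; edgeR quasi-likelihood, adjusted p = 0.025), and was the only called gene outside chromosome 13. It overlaps *Trim17* on the same strand. *H2bc15* had 1002, 883, 638 and 570 CPM, a log2 fold change of −0.64 ± 0.192 (SE; edgeR quasi-likelihood, adjusted p = 0.0411). *H2ac11* had 67.8, 55.6, 42.8 and 31.5 CPM, a log2 fold change of −0.74 ± 0.227 (SE; edgeR quasi-likelihood, adjusted p = 0.0487). All coding windows of *H2ac11* occur elsewhere in mm9. *H2ac4* had 178, 135, 125 and 84.4 CPM, a log2 fold change of −0.60 ± 0.183 (SE; edgeR quasi-likelihood, adjusted p = 0.0495). In all 4 genes both libraries of passage 42 lay below both of passage 34.

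**Figure D4:**
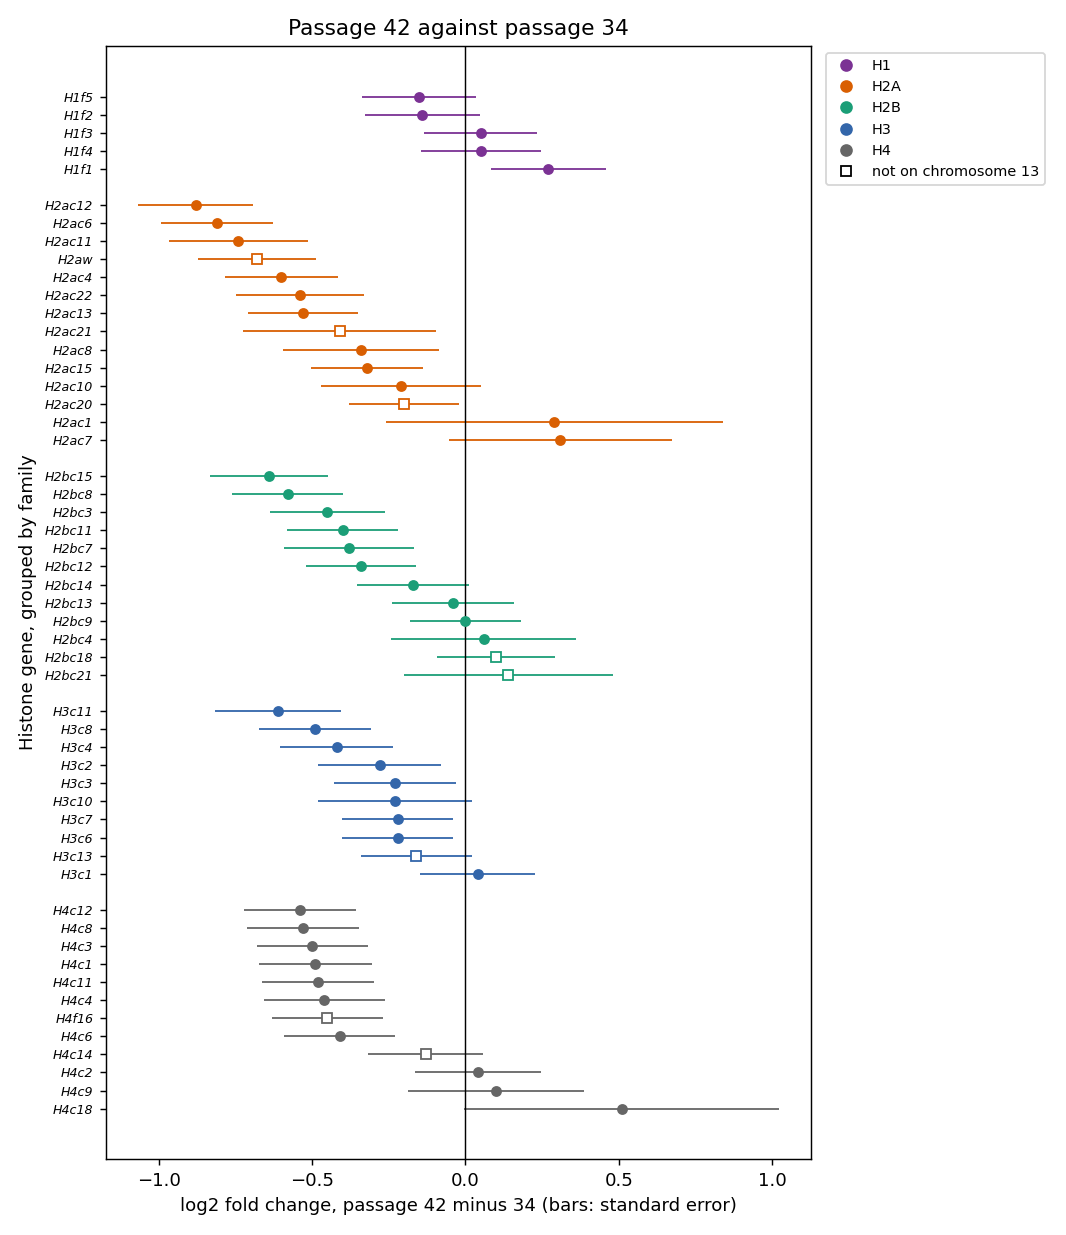
Log2 fold change of passage 42 against passage 34 for the 53 tested histone genes, grouped by family, with standard errors from edgeR's quasi-likelihood test with genotype as a block; open squares are genes outside chromosome 13. H2A genes reach −0.88 (*H2ac12*), while the H1 genes lie between −0.15 and 0.27.

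The partners in a shared promoter did not always have like values. In 8 of the 12 pairs both genes were tested, and the H2A gene had the lower passage log2 fold change in 5. *H2ac12* had −0.88 and its partner *H2bc12* −0.34, and *H2ac6* had −0.81 and *H2bc4* 0.06. The value of *H2bc4* is less certain, since it is that of 1 of its 2 IDs, with 185, 192, 250 and 242 reads. All coding windows of *H2bc4* occur elsewhere in mm9. *H2bc15*, which fell, is paired with *H2ac15*, which had −0.32 and did not pass. *H2ac11* had −0.74 and *H2bc11* −0.40. All 3 shared promoters printed above hold CCAAT, 3 copies each, and those of *H2ac12* and *H2ac6* also hold 1 octamer.

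**Figure D5:**
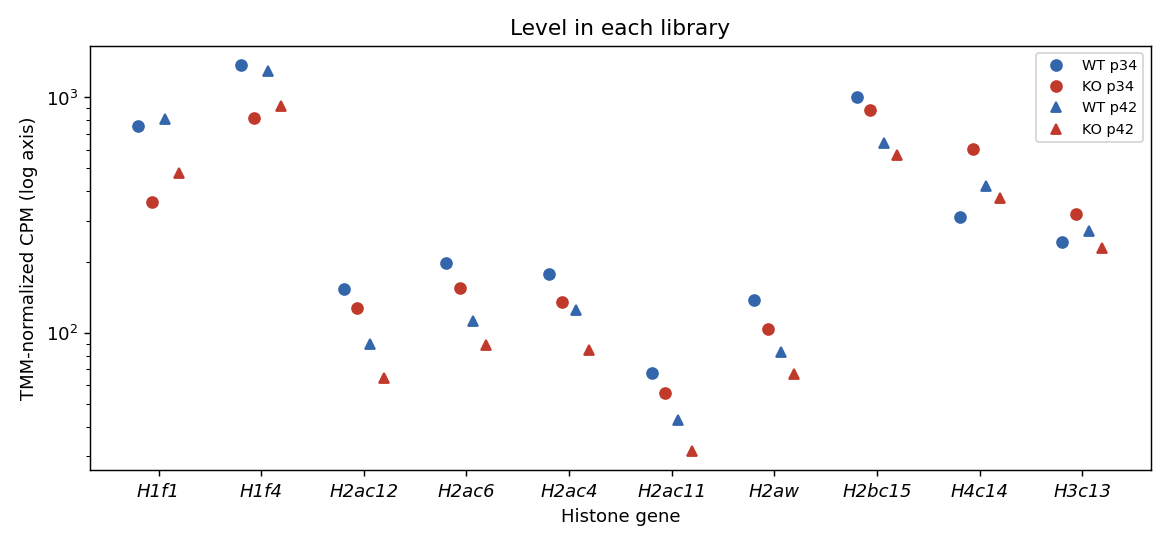
Levels of 10 histone genes as TMM-normalized CPM (log axis). Each point is 1 library, with blue for WT, red for KO, circles for passage 34 and triangles for passage 42. *H1f1* and *H1f4* separate by genotype, the 6 genes from *H2ac12* to *H2bc15* separate by passage, and *H4c14* is highest in the KO library of passage 34.

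The base composition of the transcripts moved with the passage values. Coding GC content was 69.3% in the median H2A gene, 67.4% in H3, 65.7% in H4, 62.7% in H2B and 59.6% in H1. Across the 53 tested histone genes, which share libraries and sequence, GC content and passage log2 fold change had a Pearson r of −0.39 and a Spearman rho of −0.37. Across 11324 other transcripts r was −0.24 and rho −0.25. The 363 other transcripts with a coding GC content of at least 65% had a median passage log2 fold change of −0.30, near that of the histone genes. Of these, 10.7% were lower at an unadjusted p under 0.05 in edgeR's test, against 41.5% of the histone genes, and 0.551% were lower at an adjusted p under 0.05. The 597 other transcripts with a coding length under 450 bases had a median of −0.11. Among the histone genes called lower at passage 42, coding GC content was 69.5% to 70.3% in *H2ac4*, *H2ac6*, *H2ac11* and *H2ac12*. It was 63% in *H2bc15* and 61.8% in *H2aw*. In the comparison of genotypes the GC-rich other transcripts had a median of 0.14, the histone genes −0.29, and across histone genes r was 0.03. The part of base composition in the passage values was not tested.

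Genes that act on histones or on DNA replication were compared in lists that are described by their counts. Too few reads left some genes of each list untested. Counts were per transcript ID, and reads that fit several IDs were set aside as ambiguous. Few reads thus do not show that a gene was barely expressed. Tested were 36 of 45 genes of DNA replication and S phase and 10 of 11 replication-independent histone variants. Of histone mRNA processing and transcription 15 of 24 genes were tested, and of histone chaperones 20 of 22. Of 36 tested genes of DNA replication and S phase, 1 was lower in KO and 0 higher in edgeR's test, with a median log2 fold change of −0.11. The gene that fell was *Gins2*, a subunit of the replicative helicase, with 91.2, 48, 81.8 and 40.1 CPM and a log2 fold change of −0.97 ± 0.212 (SE; edgeR quasi-likelihood, adjusted p = 0.0339). With the passage as a block, edgeR called 2 genes of this list. Between the passages 0 of the 36 passed edgeR's test, 0 even at an unadjusted p under 0.05, and the median was −0.03. The list summed to 5691, 5167, 5685 and 5231 CPM, lower in KO and level between passages.

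Of 10 tested replication-independent histone variants, 1 was lower in KO and 0 higher, with a median of −0.21. *Macroh2a2*, a variant H2A with a macro domain, fell from 30.9 and 35.2 CPM in WT to 13.5 and 14.6 CPM in KO, a log2 fold change of −1.24 ± 0.253 (SE; edgeR quasi-likelihood, adjusted p = 0.0248). *H2az2*, an H2A.Z gene, had −0.82 (edgeR, adjusted p = 0.114), and was also called with the passage as a block (edgeR, adjusted p = 0.00127). Between the passages 0 of the 10 passed edgeR's test, and the median was −0.11. At an unadjusted p under 0.05, 3 of the 10 were lower at passage 42, against 3.90% of all transcripts. They were *H2aj* (−0.62), *H2ax* (−0.44) and *H1f0* (−0.37), so lower values with passage were not limited to the replication-dependent genes.

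Of 15 tested genes of histone mRNA processing and transcription, 0 passed in KO in edgeR's test and 2 had an unadjusted p under 0.05, both higher. This is 13.3%, against 12.8% of all tested transcripts in either direction, and so near the background. They were *Cpsf3*, the endonuclease that cuts the 3' end, at 0.70 and *Cpsf2*, of the same complex, at 0.44. With the passage as a block, *Cpsf3* was called (edgeR, adjusted p = 0.0115). The median was 0.14, and between the passages 0 passed and the median was 0.01. Between the passages 1 of the 15 had an unadjusted p under 0.05 and was lower, against 3.90% of all transcripts. Of 20 tested histone chaperones, 0 passed in KO and 0 had an unadjusted p under 0.05, and the median was −0.13. DESeq2 called 0 genes of either list in KO. *Slbp*, the gene of the stem-loop binder, was among the untested genes with 0 reads in every library, so its level is not known from these counts. Between the passages 1 chaperone was lower, *Nap1l1*, whose ID had 67, 164, 68 and 38 reads and a log2 fold change of −1.36 (edgeR, adjusted p = 0.025). DESeq2 called 0 genes of the 4 lists between the passages.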

How the data were processed

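RNA sequencing covered 2 *Tmpo* WT and 2 *Tmpo* KO libraries, grouped by the genotype in the sample labels. The deposited files hold raw counts per RefSeq transcript, which the authors made with cutadapt, TopHat2 version 2.0.9 (mm9) and htseq-count (HTSeq), with reads of mapping quality above 20. The libraries mark the strand, but its use in counting was not given in the sources used here. Overlapping genes of opposite strands therefore cannot be told apart. Reads in no feature (49.9% to 56.5%) and ambiguous reads (12.1% to 13.4%) stayed out of library sizes and tests.

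Symbols were matched to 32308 of 32757 IDs through RefSeq genes of GRCm38.p6, and positions, coding sequences and stem-loops came from NCBIM37 (mm9). Transcripts with at least 1 CPM in both libraries of either genotype (13855) entered edgeR 4.0.16 under R 4.3.3, with TMM factors and the quasi-likelihood F-test, and were called at a p under 0.05 after Benjamini-Hochberg adjustment over all 13855. TMM factors were 0.979 to 1.03 and the biological coefficient of variation 21.8%. Standard errors come from the fold change and the test statistic. In simulated counts, 51.6% of transcripts changed 2-fold and 94.9% of those changed 4-fold were recovered for the genotypes (7.19% of calls false). For the passages the shares were 46.1% and 97.6% (3.94% false). When genotypes were compared, the simulated counts held no passage difference, and their spread came from a fit with genotype and passage. The genotype shares may thus be too high for the main comparison, in which the libraries of a genotype also differ in passage.

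The members, lists and tests were chosen with earlier results of these data known. Named are histone genes called in either comparison, the 4 most abundant of each family, the 3 largest and 3 smallest fold changes per comparison, all tested genes outside chromosome 13, and called or top genes of each list. Of these, 1 gene of a list is not reported here. Other histone genes are named after their values were seen. Alternatives were DESeq2 1.42.0, the likelihood ratio test of edgeR, RLE size factors or library totals for scaling, other filters, counts summed per gene, a replicate block, no genotype block, 0.5 as prior count and each library left out. Members by current symbol alone, the count of non-overlapping genes at 1 CPM in all 4 libraries, and the cluster shares without *H4c14* or the H1 genes were added after seeing the data. Tables and plots were made with matplotlib 3.10.9, scipy 1.17.1, numpy 2.4.6 and pandas 2.3.3 under Python 3.11.15.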

Additional observations from a re-analysis of the deposited data

Results flagged for a closer look

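In 5 named histone genes the KO library lay above the WT library at 1 passage and below it at the other, in log2 CPM. These differences, each between 1 library and 1 library, were not tested. KO minus WT was 0.96 at passage 34 and −0.17 at passage 42 in *H4c14*, 0.41 and −0.24 in *H3c13*, −0.37 and 0.16 in *H2bc18*, 0.01 and −0.51 in *H3c8*, and −0.01 and 0.12 in *H4f16*.

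In 6 named genes the passages differed in opposite directions in the 2 genotypes, again without a test. Passage 42 minus passage 34 was 0.43 in WT and −0.69 in KO in *H4c14*, 0.16 and −0.48 in *H3c13*, −0.17 and 0.37 in *H2bc18*, −0.08 and 0.17 in *H1f4*, −0.09 and 0.63 in *H2ac1*, and −0.08 and 0.68 in *H2ac7*. *H2ac1* rests on at most 16 reads per library and *H2ac7* on at most 114. *H4c14*, *H3c13* and *H2bc18* are neighbors on chromosome 3.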

How the results depend on the processing

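Each genotype has 2 libraries of 1 line, and depth limits genes of few reads, with an SE of 0.472 for *H2ac1* (at most 16 reads per library) and 0.216 for *H1f4*. RLE size factors, DESeq2, the likelihood ratio test and no filter on low counts each called 1 histone gene in KO against 0, each time *H1f1*. These settings called 2.98% to 4.6% of all tested transcripts. The likelihood ratio test called 638 and no filter 740 transcripts against 381, and no filter called 2 replication-independent variants against 1. In a fit blocked on the replicate number (equal to the passage), 1092 transcripts (7.88% of those tested) and 2 histone genes (*H1f1* and *H1f4*) were called. The same fit called 1 gene of histone mRNA processing, 2 variants and 2 genes of DNA replication. This paired fit rests on the labelled passage, and the sources used here do not say whether the cultures of a passage were handled together.

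Leaving out 1 library in turn, the KO comparison called 109 to 1291 transcripts, 0 to 4 histone genes (the 4 without KO replicate 1), 0 to 1 gene of histone mRNA processing, 0 to 2 variants and 0 to 1 gene of DNA replication, and the median histone log2 fold change was −0.47 to −0.06. The sign of 12 named genes turned in such a fit, with log2 fold changes of −0.33 to 0.07 in *H2bc18*, −0.17 to 0.28 in *H3c13*, −0.06 to 0.41 in *H2ac21*, −0.19 to 0.34 in *H4f16*, −0.93 to 0.10 in *H2ac12*, −0.54 to 0.20 in *H2bc15*, −0.64 to 0.07 in *H3c8*, −0.82 to 0.04 in *H2ac11*, −0.81 to 0.14 in *H2ac6*, −0.73 to 0.05 in *H2aw*, −0.50 to 0.02 in *H4c4* and −0.58 to 0.13 in *H4c8*. By construction these fits set unequal passages against each other.

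For the passages, 1 CPM in all 4 libraries called 145 transcripts against 320 and 3 histone genes against 6 (median −0.35), DESeq2 48 and 2, counts summed per gene 3 histone genes, and no genotype block 0 and 0. The histone median was −0.32 in WT alone and −0.36 in KO alone. The share of chromosome 13 without *H4c14* was 88%, 86.3%, 87.1% and 83.8%, and without the H1 genes 81.1%, 77%, 77% and 73.3%. The cause of each other change was not tested. Of 358 values of named genes in the KO comparison, 333 kept sign and side of the threshold, 9 passed it and 16 turned; for the passages 161 of 178 kept both, 16 lost the call and 1 gained it.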
